A study of Saccharomyces cerevisiae with 11 samples.

Results

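A pooled library of designed peptides was grown in Y2H Gold yeast with aureobasidin A at the label 200, and the comparison below sets the culture at 24 h against the same arm at 12 h. The members are 10 of the 55 columns of read counts, 5 per time, each column being 1 barcoded copy of the library; they belong to 2 of the 11 deposited samples. All 12400 entries of the table were kept, of which 4616 had a mean of at least 10 reads over the 10 libraries and were tested. The table has 143 design sets. The study as a whole followed the library without the antibiotic to 24 h and at the labels 150 and 200 to 72 h. All cultures shared medium lacking tryptophan and a 1 to 100 dilution each day. The 2 groups share strain, library and label, and differ by the time of sampling, so 24 h has both longer exposure and more generations. The dose is printed as a bare number because the sample fields and the growth protocol give different units, and that protocol describes antibiotic for every sample, untreated ones included. Groups were therefore taken from the sample titles. The series text calls the 5 barcodes biological replicates, but nothing says that they grew as separate cultures, so every p-value below measures spread between barcoded sub-libraries.

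Activation domains are the parts of transcription factors that recruit the transcription machinery, and many combine acidic residues with aromatic or other large hydrophobic ones. Y2H Gold carries AUR1-C, a resistant form of the yeast inositol phosphorylceramide synthase, as a reporter. Aureobasidin A blocks that enzyme, which makes the lipids of the sphingolipid pathway, so that cells in which a peptide activates the reporter can grow in its presence. A change in a peptide's share of reads is thus a competition among all cells of the pool, and a share can fall because others grow faster. Entries whose first codon is a stop encode no peptide and show where cells without an activation domain lie.

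The table gives each entry a tag of 20 bases, which is not 1 of the 5 replicate barcodes and whose role the labels do not state. The tags of the 6 largest single rises, the 3 largest falls and the unsubstituted parents of those entries that have one are printed here as designed, so that the members described below can be recognised. Capitals are not used because no stretch of a tag was analysed.
entry 8135: ggccacatgtgtctgtcttt
entry 12035, parent of 8135: aagcttagcctctttcccga
entry 4295: gatcagtgaacagaacactg
entry 7310: ctccctaaaatactgaagac
entry 12010, parent of 7310: ccacacgaaatgtccctctc
entry 8867: gtcctttctcagccgacgat
entry 12067, parent of 8867: ggggccttaacaatcagttc
entry 8871: ctagggctttattggggtgg
entry 12071, parent of 8871: ttcgcgcagtaatagatcga
entry 8141: cgaaccggtttttcgccttc
entry 12041, parent of 8141: attacgtagccgcagtttta
entry 9282: atggccactgtatttgatcg
entry 10062: gtggaatccatagctcaaca
entry 10806: gagccatcacatgccagcac

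The library narrowed between 12 h and 24 h. The effective number of entries, the exponential of the Shannon entropy of the read shares, was 1611 ± 87.9 at 12 h and 1025 ± 66.3 at 24 h (SD, n = 5 each). A read was found for 9355 ± 378.4 entries at 12 h and for 5590 ± 430.7 at 24 h. The 24 h libraries were shallower, with 683589 to 1340181 reads against 1442922 to 2627106, but after every library had been thinned to 683589 reads the numbers were still 8010 ± 147.9 and 5344 ± 245.2. Thinning evens out reads only, and the number of molecules amplified was not measured. At 48 h in the same arm a read was found for 6549 ± 580.9 entries, more than at 24 h, in libraries of 1086246 to 2371857 reads. The leading entry of each library took 0.792 ± 0.194% of reads at 12 h and 1.18 ± 0.0873% at 24 h. Each of these 3 measures moved the same way in 5 of 5 barcodes, with a two-sided exact permutation p of 0.00794, the smallest that 5 against 5 can give, and 0.0106 after Benjamini-Hochberg adjustment over 4 measures.

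Entries that encode no peptide held overlapping shares of reads at the 2 times, spread over fewer entries in each library at 24 h. In barcodes 1 to 5 the 153 stop-first entries held 0.0589%, 0.0572%, 0.041%, 0.0538% and 0.0475% of reads at 12 h and 0.0713%, 0.057%, 0.0663%, 0.0373% and 0.047% at 24 h. The times overlap, and 2 of 5 barcodes were higher at 24 h (exact permutation p = 0.579, the fourth measure of the family above). Their summed reads went from 4855 to 2820, with 150 of the 153 entries seen in any library at 12 h and 133 at 24 h. Per library 115 to 130 of them had a read at 12 h and 46 to 84 in the shallower libraries of 24 h, a mean of 124.4 ± 5.86 against 68.4 ± 15.9, with no overlap. As a set their log2 change was 0.09 (SE 0.19, edgeR adjusted p = 0.681), and it was -0.07 without barcode 3. With the label 150 the same entries went from 0.0204 ± 0.00307% to 0.00145 ± 0.00147% over the same interval, and from 141 to 12 entries seen. Reads of entries without a peptide thus remained at the label 200, and the losses below are given beside them.

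Entry by entry, more of the library lost share than gained it. The counts were scaled to library totals and fitted with edgeR's quasi-likelihood test with the barcode number as a block, so that each barcode is compared with itself, and calls were made at a Benjamini-Hochberg adjusted p under 0.05. Of the 4616 entries tested, 632 rose, which is 13.7%, and 1653 fell, which is 35.8%. The rest, 2331, did not pass. Of the entries called, 310 had risen and 1521 had fallen at least 2-fold, and the median log2 change of all tested entries was -1.21. The split depends on the scaling: with TMM factors, which assume that most entries do not change, 854 rose and 1392 fell and the median was -0.89, and with the size factors of DESeq2 935 rose and 1602 fell. It also depends on the filter: of the 2813 entries with a mean of at least 50 reads 667 rose and 1207 fell, and their median was -0.48. Rises thus made up 27.7% of calls on library totals, 38.0% with TMM and 36.9% with DESeq2.

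The barcodes differed far more in the level of an entry than in its change. Over 1488 entries with at least 10 reads in all 10 libraries, the median SD of the log2 level between barcodes was 1.3 at 12 h, whereas the median SD of the log2 change was 0.38. With no block, 0 entries rose (11 at an unadjusted p under 0.05) and 55 fell. Levels below are therefore given for every barcode and changes within barcodes.

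The entry with the largest rise was entry 8135, a glycine-to-leucine variant with 7 tryptophans, 7 aspartates and 3 leucines, at positions 5, 12 and 16 of its 20 residues counted from the first. In barcodes 1 to 5 it stood at 1959, 2412, 1636, 1539 and 1246 CPM (reads per 1000000 of a library) at 12 h and at 8324, 11261, 6733, 5772 and 3801 CPM at 24 h. The times do not overlap, and every barcode rose. The log2 change was 1.97 (SE 0.10, edgeR adjusted p = 9.62e-10), or 3.93-fold. Its parent, entry 12035, has glycine at the 3 positions and changed by 0.41 (SE 0.20, edgeR adjusted p = 0.107), from a mean of 209.3 to 296.2 CPM.

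Of the other 11 largest rises, 4 were also glycine-to-leucine variants. Entry 8141, with leucine at positions 6, 12, 13 and 20 and tryptophan at positions 1, 8, 11 and 17 to 19, stood at 908, 383.6, 1141, 102.6 and 2273 CPM at 12 h and at 3161, 1441, 4446, 273.6 and 8009 CPM at 24 h. Its levels overlap between the times because the barcodes started far apart, yet each barcode rose, by 1.79 on the log2 scale in the fit (SE 0.10, edgeR adjusted p = 2.52e-09). The parent, entry 12041, changed by 0.49 (adjusted p = 0.325). The remaining leucine variants were entry 8099 (log2 change 1.79), entry 8113 (1.77) and entry 8122 (1.73), whose parents changed by -2.27, 0.21 and 0.19, none past the threshold. These 4 variants have 5 to 7 tryptophans, as many aspartates and 3 to 5 leucines.

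Proline in place of glycine accounted for 2 of these rises. Entry 8871, with proline at positions 3, 7 and 18, stood at 53.7, 178.1, 231.8, 169.8 and 542.9 CPM at 12 h and at 191.6, 636.4, 693.9, 605.6 and 2039 CPM at 24 h. The times overlap, and every barcode was higher at 24 h (log2 change 1.80, SE 0.14, edgeR adjusted p = 5.1e-08). Here the parent, entry 12071, rose as well, by 1.26 (adjusted p = 5.42e-08). Entry 8867, with proline at positions 4, 6 and 11, rose by 1.81 (SE 0.42, adjusted p = 0.00217), but at low levels of 4.95 to 195.2 CPM at 12 h, and without barcode 5 its adjusted p was 0.0547.

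Phenylalanine marked 4 of the 12, and 3 of these had no tryptophan. Entry 7310 has 4 of its parent's 7 tryptophans replaced by phenylalanine, at positions 6, 11, 14 and 20. It stood at 111.5, 427.2, 207.5, 148.3 and 70.7 CPM at 12 h and at 397.8, 1757, 688, 621.7 and 222.5 CPM at 24 h, a log2 change of 1.87 (SE 0.16, edgeR adjusted p = 7.3e-08) with overlapping times and a rise in every barcode. Its parent, entry 12010, rose by 0.61 (adjusted p = 0.0114). That parent also gave entry 8210, with methionine at positions 10, 12 and 19, which rose by 1.58 (SE 0.09, adjusted p = 2.52e-09). The entries with no tryptophan were entry 7053 and entry 7050, in which all tryptophans became phenylalanine (1.77 and 1.75), and entry 4295, from the set with 3 phenylalanine cores (1.87, SE 0.58, adjusted p = 0.014). Entry 4295 was scarce, at 3.81 to 52.2 CPM at 12 h and 43.1 to 171 CPM at 24 h, and its adjusted p was 0.0561 without barcode 2. The last of the 12, entry 10412, came from the grid of tryptophan, aspartate and glycine, with 8, 8 and 4 of them (1.74, SE 0.24, adjusted p = 1.67e-05).

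**Figure D1:**
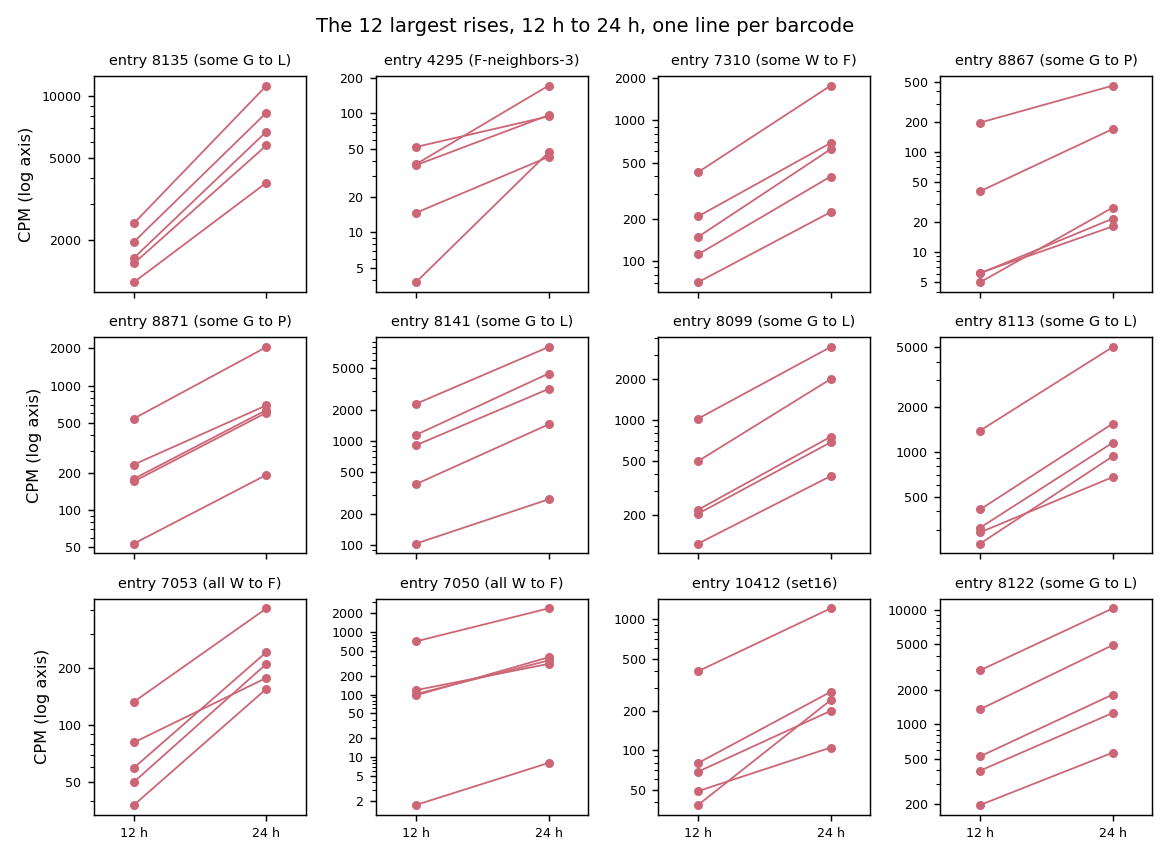
CPM (log axis) of the 12 entries with the largest rises, 1 panel each, at 12 h and 24 h with the label 200. Each line joins the 2 times of 1 barcode; levels differ between barcodes, as in entry 8141 from 102.6 to 2273 CPM at 12 h, while all 5 lines of every panel go up.

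The largest shares at 24 h belonged to a partly different group. Entry 8135 held 0.718 ± 0.281% of reads (SD, n = 5), after 0.176 ± 0.0445% at 12 h. Entry 8168, another leucine variant, went from 0.151 ± 0.0606% to 0.491 ± 0.205% (log2 change 1.70, edgeR adjusted p = 9.62e-10), and entry 8145, with 2 leucines, from 0.213 ± 0.13% to 0.439 ± 0.302% (0.98, adjusted p = 1.28e-07). The grid gave entry 10797, with 9 tryptophans of which 5 adjoin (1.38, adjusted p = 4.08e-08), and entry 9237, with 8 tryptophans (0.81, adjusted p = 1.9e-06). These 2 held 0.482% and 0.48% at 24 h and the methionine variant entry 8210 held 0.464%. All 6 were higher at 24 h in 5 of 5 barcodes, but choosing entries by their share at 24 h favours those that are higher then.

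Among the 296 entries that rose at least 2-fold in 5 of 5 barcodes, 240 came from the substitution series, which held 1691 of the 4616 entries tested. Leucine for glycine gave 41 from 92 tested entries, methionine 43 from 93 and proline 27 from 95.

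The 6 largest falls had no read at 24 h in any of the 5 libraries. At that depth 3 reads over the group, the floor used for a count of 0, amount to 0.618 CPM. These entries passed the filter on mean reads through their 12 h reads only. With 24 h set to the floor, their folds, the limits of the folds and their order follow from the 12 h reads alone. At 48 h in the same arm all 6 had reads again, in deeper libraries. Mean levels then were 0.111 CPM for entry 9282, 0.559 CPM for entry 10062 and 1.9 CPM for entry 10806. They were 1.13 CPM for entry 8697, 1.91 CPM for entry 9655 and 2.7 CPM for entry 10020. A count of 0 at 24 h thus does not show that an entry had left the culture. Entry 9282, from grid set4, has 10 tryptophans, 6 of them in a row. It stood at 57.8, 172, 57.9, 113 and 360 CPM at 12 h, 1353 reads in all. With 24 h set to the floor it was 229.5-fold lower (95% lower limit of the fold 186.4, edgeR adjusted p = 2.44e-06). Entry 10062, from set12, with 6 tryptophans and 9 aspartates, had 1032 reads at 12 h. By the same floor it was 175.1-fold lower (lower limit 142.1, adjusted p = 1.32e-05). Entry 10806, from set20, with 11 tryptophans and 5 in a row, had 859 reads and was 145.7-fold lower (lower limit 118.3, adjusted p = 0.000197). Both sets also gave entries that rose or led in share, such as entry 9237 from set4 and entry 10797 from set20.

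The other 3 of these falls were entry 9655 from set8, entry 10020 from set12 and entry 8697. Entry 9655, with 4 of its 6 tryptophans in a row, was 137.9-fold lower by the floor (lower limit 111.9). Entry 10020, with 9 tryptophans, was 130.3-fold lower (lower limit 105.7). Entry 8697 carries cysteine in place of glycine at positions 4, 9, 10 and 11. It stood at 157.6, 116.7, 22.8, 55.4 and 110.4 CPM at 12 h. By the floor it was 144.0-fold lower at 24 h (lower limit 116.9, edgeR adjusted p = 2.73e-05). Its parent, entry 11997, fell by 1.20 on the log2 scale (adjusted p = 1.23e-05). The stop-first entries kept 2820 reads over the same 5 libraries at 24 h. Of the 153 stop-first entries 16 were tested, of which 1 fell and 0 rose in edgeR (0 at an unadjusted p under 0.05, and 1 with DESeq2, where 0 fell). In all, 142 of the tested entries had no read at 24 h.

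Design sets were tested by the same fit on their summed reads. Of 139 sets tested, 19 rose, which is 13.7%, and 85 fell, which is 61.2%. Their median log2 change was -0.88. With TMM 37 rose and 48 fell and the median was -0.28, and with DESeq2 39 rose and 50 fell, so rises made up 18.3% of calls on library totals, 43.5% with TMM and 43.8% with DESeq2. Among sets with at least 0.1% of reads at 12 h, the largest rise was that of Oaf1, described with the controls. The next were glycine to methionine, from 5.72 ± 0.412% to 10.3 ± 1.14% of reads (log2 change 0.85), and glycine to leucine. The leucine set held 6.84%, 6.05%, 6.76%, 7.1% and 9.03% of reads at 12 h and 12%, 10.7%, 12.6%, 12.3% and 15.6% at 24 h, with no overlap (0.82, SE 0.03, edgeR adjusted p = 1.18e-07). Glycine to proline (0.71), tryptophan to phenylalanine at all positions (0.69) and at some (0.65) followed.

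The largest falls among such sets lay elsewhere in the design. The template with 3 tryptophans and 5 aspartates, wp-template2-5d, held 0.129%, 0.165%, 0.193%, 0.182% and 0.187% of reads at 12 h and 0.0374%, 0.0409%, 0.0487%, 0.0325% and 0.0403% at 24 h (log2 change -2.09, SE 0.13, edgeR adjusted p = 7.15e-07). Replacement of all tryptophans by tyrosine went from 0.145 ± 0.0305% to 0.0441 ± 0.00657% (-1.70), and the wp-template2-2d-spread1 set fell by 1.65. The arginine-bearing grid sets set11, set27 and set31 changed by -1.68, -1.68 and -1.67. Each of the 6 was lower in 5 of 5 barcodes and also fell with TMM and with DESeq2, while the stop-first set, at 0.09 on library totals, was higher with both (0.68, adjusted p = 0.0049, with TMM, and 0.70 with DESeq2).

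**Figure D2:**
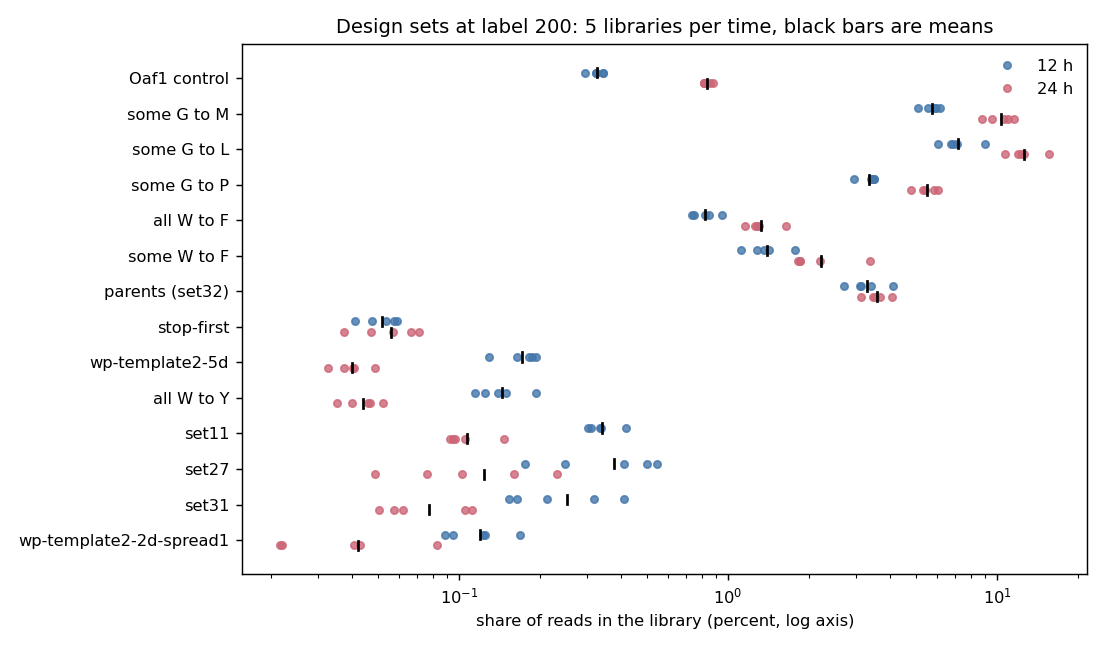
Share of reads (percent, log axis) of the 6 sets with the largest rises, the parents, the stop-first entries and the 6 sets with the largest falls, at 12 h and 24 h with the label 200. Each point is 1 barcoded library; the 2 times separate fully in the leucine set (6.05 to 9.03% against 10.7 to 15.6%) and overlap in the stop-first entries.

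The 19 substitution series together gained reads, from 49.4 ± 1.01% to 59.8 ± 0.903%. As sets 11 rose and 7 fell (14 and 5 with TMM). Of their 1691 tested entries 447 rose and 533 fell, against 13.7% and 35.8% over all entries. In single series, leucine for glycine gave 59 rises and 25 falls of 92, methionine 58 rises and 19 falls of 93, and proline 51 rises and 8 falls of 95. Asparagine had 32 rises and 6 falls of 96, and phenylalanine for some tryptophans 35 rises and 10 falls of 97. At the other end, 2 of 96 cysteine variants rose and 82 fell, 11 of 95 serine variants rose and 57 fell, and 1 of 89 variants with glutamate for every aspartate rose and 51 fell. With tyrosine for some tryptophans 0 of 93 rose in edgeR (0 at an unadjusted p under 0.05, and 1 with TMM or DESeq2) and 60 fell. The 100 parents had 21 rises and 20 falls among 97 tested.

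Substitutions by related residues did not always move alike. Replacing aspartate by glutamate keeps the charge and lengthens the side chain, and the set with all aspartates replaced went from 1.47 ± 0.196% to 0.66 ± 0.105% of reads (log2 change -1.17); the set with some replaced changed by -0.16 on library totals but by 0.44 with TMM and 0.46 with DESeq2. Phenylalanine and tyrosine differ by a hydroxyl group, and the set with all tryptophans replaced rose by 0.69 for phenylalanine and fell by 1.70 for tyrosine. Among the branched aliphatic residues in place of glycine, the summed reads of leucine (0.82) and isoleucine (0.22) rose and those of valine fell (-0.36). Valine turned to 0.24 with TMM and 0.26 with DESeq2. Of single entries 23.3% rose and 46.6% fell for isoleucine, and 19.3% and 47.0% for valine, against 13.7% and 35.8% over all entries.

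Each variant can be set against its own parent, 100 pairs to a series, paired by order within the sets and checked to differ only by the named residues. The mean log2 level of the variants minus that of their parents (prior count of 2 reads) was taken per library, and its values at 24 h were tested against those at 12 h by a two-sided exact permutation test adjusted over 19 series. In this measure 13 series passed, 4 moving up relative to their parents from 12 h to 24 h and 9 moving down. The level of cysteine variants relative to their parents was 0.11, 0.40, 0.47, 0.29 and 0.70 in barcodes 1 to 5 at 12 h and -2.49, -2.16, -2.20, -2.48 and -1.75 at 24 h. The times lie far apart, with a change of -2.61 (SD of the change within barcodes 0.12, n = 5, exact permutation adjusted p = 0.0215), and 7 of 100 pairs went up. For proline the values were -0.27, 0.06, 0.15, 0.18 and 0.06 at 12 h and 0.32, 0.80, 0.64, 0.83 and 0.76 at 24 h, a change of 0.63 (adjusted exact p = 0.0215) with 80 of 100 pairs up.

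The other series that moved up relative to their parents were asparagine (0.54), phenylalanine at all tryptophans (0.45) and methionine (0.30). Asparagine variants still stood below their parents, at -1.21 at 12 h and -0.67 at 24 h. So did variants with phenylalanine at all tryptophans, at -1.77 and -1.32. Series that moved down were serine (-1.45), glutamate at all aspartates (-1.42), tyrosine at some tryptophans (-1.42) or all (-1.05) and valine (-1.09). Isoleucine (-0.86), leucine at all tryptophans (-0.56) and glutamate at some aspartates (-0.53) also moved down. Leucine for glycine did not pass in this measure: its variants stood above their parents at both times, by 1.14 ± 0.39 at 12 h and 1.28 ± 0.52 at 24 h (SD, n = 5), a change of 0.14 with 69 of 100 pairs up. On summed reads, which weight abundant variants, its change was 0.694 (exact permutation adjusted p = 0.0302). Isoleucine at 0.0928 and leucine at all tryptophans at 0.275 turned upward on summed reads, without passing. Phenylalanine at some tryptophans (0.47, adjusted exact p = 0.141) and leucine at some (0.37, adjusted exact p = 0.0754) did not pass, though 5 of 5 barcodes were higher in both. The permutation does not pair the barcodes, so differences in level between barcodes enter it. The SD of the change within barcodes was 0.16 for phenylalanine and 0.13 for leucine at some tryptophans. Tyrosine at all or some tryptophans had the other order outside this measure. Median changes of tested entries were -2.68 for all (51 tested) and -1.73 for some (93 tested), and set changes -1.70 and -1.14. Variants with tyrosine at all tryptophans already stood at -3.97 relative to their parents at 12 h, against -0.67 for some.

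**Figure D3:**
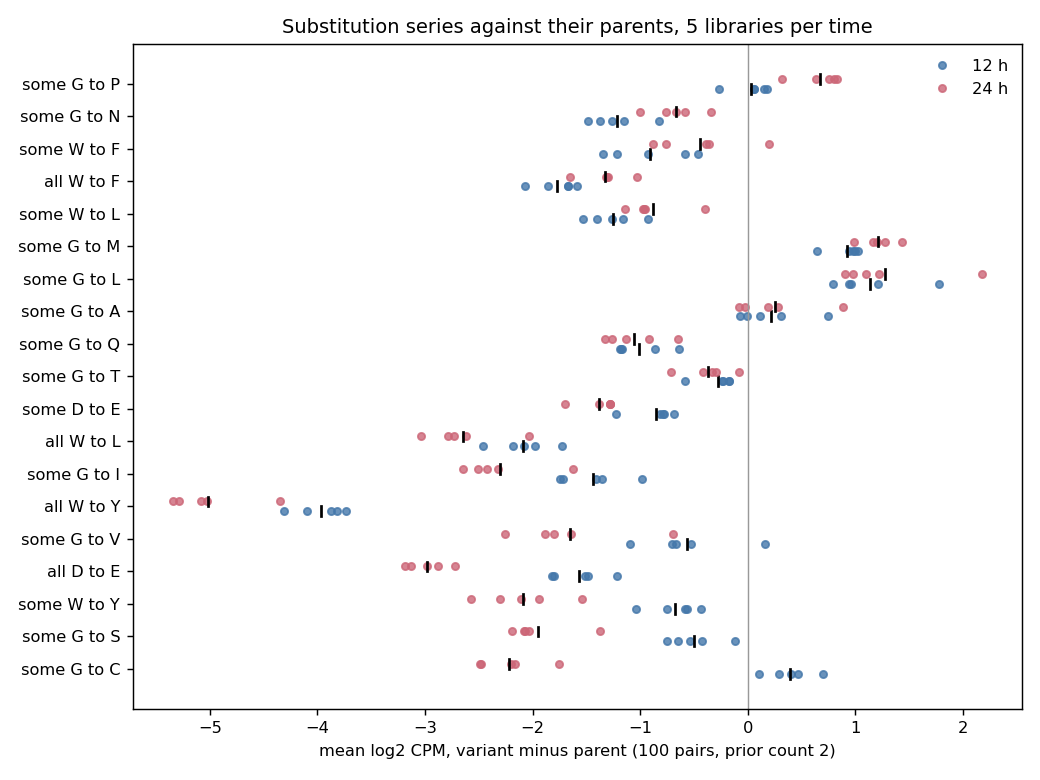
Mean log2 level of variants minus that of their parents for the 19 substitution series, 1 point per barcoded library, at both times of the label 200. Cysteine variants move from 0.39 ± 0.22 to -2.22 ± 0.30 and proline variants from 0.03 ± 0.18 to 0.67 ± 0.21 (SD, n = 5).

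Pairs were also grouped by the number of substituted positions, given here as a description over pairs, which share libraries. Cysteine at 1 or 2 positions changed the pair by -1.69 on average (12 pairs), at 3 positions by -2.32 (30 pairs), at 4 by -3.43 (35 pairs) and at 5 to 9 by -2.23 (23 pairs). Both cysteine variants that rose had 1 or 2 substitutions. Serine changed by -1.0, -1.33, -1.62 and -1.58 over the same classes. Proline followed no order, with 0.65, 0.47, 0.36 and 1.26, and asparagine had 0.35, 0.43, 0.45 and 0.93. The median log2 change of the tested variants themselves was 1.09, 0.76, 0.51 and 0.60 for proline over these classes. For asparagine it was 0.87, 0.80, 0.65 and 0.21. In both series the larger pair change at 5 to 9 positions thus did not go with larger rises of the variants.

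Averaged over reads, the composition of the encoded peptides shifted toward more acid, leucine and methionine and less glycine. The read-weighted mean number of aspartates per peptide went from 5.55 ± 0.0237 to 5.81 ± 0.0478 and that of glycines from 5.88 ± 0.0451 to 5.37 ± 0.071 (SD, n = 5). Leucine went from 0.584 to 0.855, methionine from 0.294 to 0.45, phenylalanine from 0.323 to 0.409, and asparagine plus glutamine from 0.163 to 0.207. Cysteine went from 0.172 to 0.0601, tyrosine from 0.178 to 0.0967, arginine from 0.128 to 0.0595 and glutamate from 0.189 to 0.126. Of 21 features 16 passed, 7 higher and 9 lower, each of those just named with an exact permutation adjusted p of 0.0128 and with 5 of 5 barcodes in its direction. Tryptophan did not: its mean was 5.55 ± 0.0586 at 12 h and 5.59 ± 0.0696 at 24 h (exact permutation p = 0.341). Proline was higher when reads were weighted (0.236 to 0.269) and lower when each entry counted once (a change of -0.179).

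Entries were also counted by class of composition, to be read against the 13.7% that rose and the 35.8% that fell over all tested entries. Of tested entries with 7 tryptophans 27.0% rose and 34.6% fell, whereas of 485 with 2 tryptophans 0 rose in edgeR (1 without adjustment at p under 0.05, then 2 with TMM and 3 with DESeq2) and 29.7% fell. With 7 or 8 acidic residues 25.6% rose, and their reads went from 35.6 ± 1.34% to 40.6 ± 0.85%; of 739 tested entries with 1 or 2 acidic residues 0 rose in edgeR (1 without adjustment at p under 0.05, then 2 with TMM and 6 with DESeq2) and 33.3% fell. Of 419 tested entries with 3 or more arginines 0 rose in edgeR, also at an unadjusted p under 0.05 and with TMM, 1 rose with DESeq2, and 150 fell. Entries with at least 4 tryptophans in a row rose in 10.2% and fell in 53.9% of 293 tested. The shares of falls in the classes with 2 tryptophans, with 1 or 2 acidic residues and with 3 or more arginines were thus no higher than over all entries. The classes with 0 rises started low: the 2273 entries with 2 tryptophans held 2.46 ± 0.105% of reads at 12 h, and the 5832 with 1 or 2 acidic residues 4.67 ± 0.199%.

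**Figure D4:**
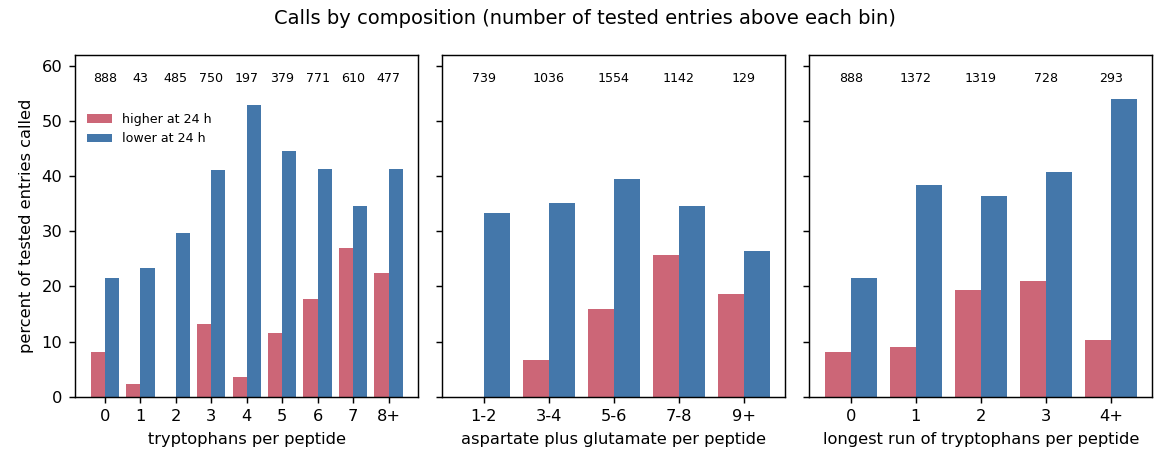
Percent of tested entries that rose and that fell (edgeR adjusted p under 0.05, label 200, 24 h against 12 h) by number of tryptophans, number of acidic residues and longest run of tryptophans. Rises are at 0% with 2 tryptophans and 27.0% with 7, and at 0% with 1 or 2 acidic residues and 25.6% with 7 or 8.

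Sets built of 1, 2 or 3 short hydrophobic cores with varied flanks separated by the number of cores. With 1 core, tryptophan (-0.23), phenylalanine (0.30), tyrosine (0.04) and leucine (0.26) did not pass on library totals, and all 4 were higher with TMM, as the stop-first set was. With 2 cores every set was lower on library totals: tryptophan went from 1.52 ± 0.271% to 0.648 ± 0.113% of reads (log2 change -1.23), tyrosine changed by -0.97, phenylalanine by -0.76 and leucine by -0.39. Under TMM leucine turned to 0.20 and phenylalanine, at -0.16, did not pass. With 3 cores phenylalanine (2.88% to 3.25%, 0.17) and leucine (2.69% to 3.20%, 0.24) rose and tyrosine fell (1.24% to 0.664%, -0.91), while tryptophan changed by -0.15 on library totals and by 0.45 with TMM. Single entries fell more often than they rose in each of these sets: 27 rose and 50 fell among 199 phenylalanine entries, with a median log2 change of -1.08, and 19 rose and 24 fell among 136 leucine entries, with a median of -0.67. These shares of rises, 13.6% and 14.0%, lie near the 13.7% over all entries. Among 169 tyrosine entries 61 fell and 0 rose in edgeR (0 without adjustment at p under 0.05, then 1 with TMM and 2 with DESeq2).

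Grid and template sets lost share. The 15 grid sets without arginine went from 22.3 ± 1.54% to 16.4 ± 1.61% of reads in sum, and all 15 were lower on library totals, but with TMM 2 were lower and 3 higher. Their 699 tested entries held 74 rises and 335 falls. The 16 sets with arginine went from 3.13 ± 0.35% to 1.35 ± 0.143%, with 9 lower and 0 higher in edgeR, also at an unadjusted p under 0.05 (8 and 1 with TMM or DESeq2). These 9 of 16 stand against the 61.2% of all sets that fell. Templates with 2 tryptophans went from 0.261 ± 0.0394% to 0.0858 ± 0.00751% and those with 3 from 2.24 ± 0.0854% to 0.89 ± 0.0964%; in the latter 22 of 23 sets were lower on library totals and 19 with TMM, and 107 of 155 tested entries fell (95 with TMM and 108 with DESeq2) and 0 rose, also at an unadjusted p under 0.05 in edgeR and with both other scalings.

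The reads of each set per entry can also be divided by those of the stop-first set. Peptides with 1 tryptophan and 1 aspartate had 0.373 times the reads per entry of the stop-first set at 0 h, 0.366 times at 12 h and 0.354 times at 24 h. Those with all tryptophans turned to tyrosine went from 4.36 times at 12 h to 1.26 times at 24 h, close to the stop-first level. Leucine variants went from 216.8 to 369.7 times and Oaf1 from 244.6 to 603.8 times. Of 22 sets with under 1.5 times the stop-first reads in untreated culture at 12 h, 0 rose in edgeR (0 at an unadjusted p under 0.05) and 2 fell, and the median change was -0.23 on the log2 scale. With TMM 8 of these 22 rose and with DESeq2 9, and 0 fell with either. Of 59 sets between 5 and 50 times, 7 rose and 45 fell, with a median of -1.47.

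Activation domains carried as controls have 4 entries each, which encode 1 peptide and differ in their tag. Of 24 control peptides 23 could be tested as sets, and 4 rose and 7 fell (6 and 4 with TMM), against 13.7% and 61.2% of all sets. Oaf1, from the yeast regulator of genes for fatty acid use, held 0.323%, 0.344%, 0.323%, 0.344% and 0.295% of reads at 12 h and 0.86%, 0.877%, 0.817%, 0.814% and 0.815% at 24 h. The times are far apart and the barcodes of each time lie close together (log2 change 1.36, SE 0.07, edgeR adjusted p = 1.45e-07), and each of its 4 entries rose. The doubled VP16 motif, from the activator of herpes simplex virus, went from 0.0284 ± 0.0158% to 0.0743 ± 0.0438% (1.36, SE 0.15, adjusted p = 3.03e-05), and 3 of its 4 entries rose. The Gal4 peptide of residues 860 to 872, from the yeast activator of galactose genes, changed by 0.46 (adjusted p = 0.0102, and 0.0561 without barcode 1). The plant heat shock factor HSFA2 peptide changed by 0.49 (adjusted p = 0.0346, and 0.123 without barcode 1).

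Other controls fell. EBNA2, from a transactivator of Epstein-Barr virus, went from 0.0147 ± 0.011% to 0.0029 ± 0.00292% of reads (log2 change -2.69, edgeR adjusted p = 0.00041). Pdr1, from the yeast regulator of multidrug resistance, changed by -1.89 (adjusted p = 0.00178) and the control labelled LexA scr top#1 by -1.55 (adjusted p = 0.00284). VP16 21aa, a different VP16 peptide from the motif in the doubled control, fell by 0.91 (adjusted p = 4.13e-05). Gcn4, from the yeast activator of amino acid synthesis, changed by -1.47 (adjusted p = 0.0341, and 0.216 with TMM). KLF4 changed by -0.61 on library totals and by -0.01 with TMM and 0.01 with DESeq2, and EKLF by -0.44 (adjusted p = 0.0491), 0.15 and 0.17. The VP16 min peptide, the single form of the doubled control, had 90 reads at 12 h and 0 at 24 h and was not tested. The designed helix AH (-0.02, turning to 0.57 with TMM), p53-AD1 (0.16), hHSF1 (0.19) and the Gal4 peptide of residues 840 to 857 (1.01, SE 0.70, adjusted p = 0.212) did not pass.

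Ordered mixes of tryptophan and aspartate, the WD-controls, split within the set. They went from 0.811 ± 0.285% to 1.09 ± 0.576% of reads (log2 change 0.35, edgeR adjusted p = 0.0129), and of 20 tested entries 10 rose and 9 fell, also with TMM and with DESeq2.

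The same interval at the label 150 was compared by the difference of the changes, with each barcode as a block in both arms. Of 4023 entries tested, 264 changed more upward at the label 200, which is 6.56%, and 25 more downward, which is 0.621%, with a median difference of 0.33. This count rests on all barcodes: refits without 1 of them called 10 (barcode 3) to 69 (barcode 4) entries, against 289. Of 136 sets 61 had a higher change at the label 200, which is 44.9%, and 3 a lower one, which is 2.21%. With TMM 84 sets were higher and 0 lower, and with DESeq2 52 and 24. Entries split into 144 higher and 27 lower with TMM, and 203 and 64 with DESeq2. The highest fitted differences belonged to templates with 2 tryptophans, such as wp-template1-5d-spread2 and wp-template1-2d-spread3 (8.19 each), which had no read at 24 h with the label 150, so that the size of the fitted value depends on the prior count. Stop-first entries changed by 0.09 at the label 200 and by -4.29 at the label 150, a fitted difference of 4.06 (edgeR adjusted p = 5.23e-06). The set with all tryptophans turned to tyrosine changed by -1.70 and -5.02 (difference 3.22, adjusted p = 3.66e-07). The leucine and methionine sets had smaller differences between the labels, with changes of 0.82 against 0.71 for leucine and 0.85 against 0.64 for methionine, and with DESeq2 the leucine difference turned from 0.11 to -0.07. For entry 8135 the difference was 0.61 (adjusted p = 0.0094).

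In untreated culture the median log2 change over the same interval was -0.14 over entries and -0.02 over sets. Of 5206 entries tested for the difference, 884 changed more upward with the label 200, which is 17.0%, and 1845 more downward, which is 35.4%. Of 140 sets 25 were higher, which is 17.9%, and 82 lower, which is 58.6%. The split of sets depends on the scaling: 40 were higher and 48 lower with TMM, and 41 and 47 with DESeq2. Cysteine variants changed by 0.04 without and by -1.63 with the antibiotic (difference -1.67, edgeR adjusted p = 7.25e-11), leucine variants by 0.14 and 0.82, and Oaf1 by 0.13 and 1.36 (difference 1.23, adjusted p = 5.28e-12). Variants with all tryptophans turned to phenylalanine changed by -0.41 without and by 0.69 with it. The stop-first set changed by -0.72 without the antibiotic in its own fit, and the joint fit of both arms gave a difference of 0.85, upward.

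**Figure D5:**
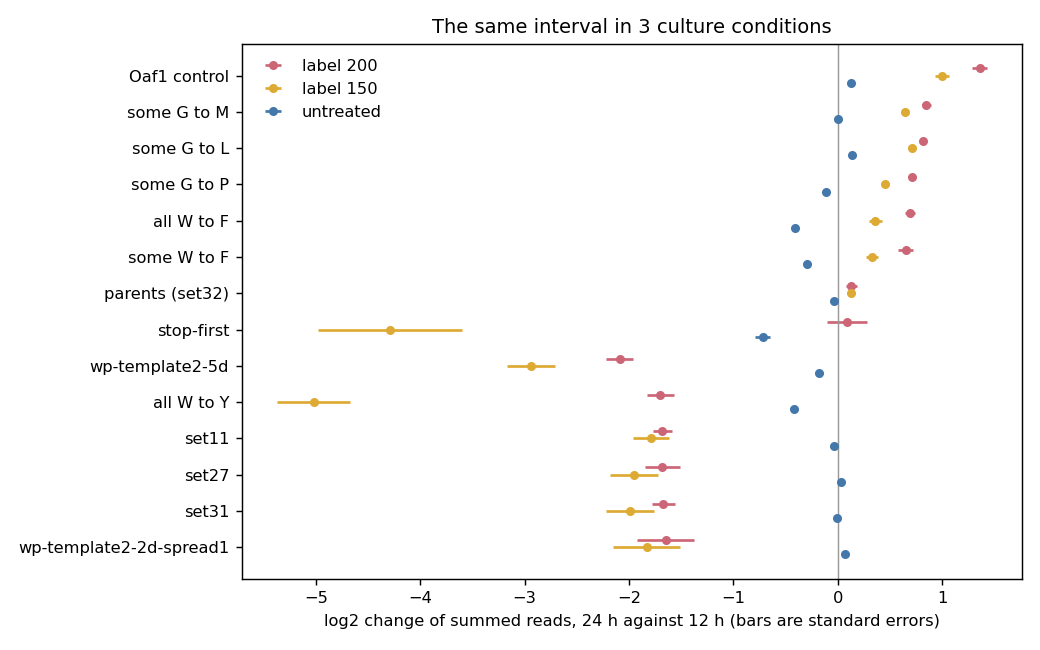
Log2 change from 12 h to 24 h (with SE from the edgeR fit) of the same sets with the label 200, with the label 150 and in untreated culture. Leucine variants stand at 0.82, 0.71 and 0.14, and the stop-first entries at 0.09, -4.29 and -0.72.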

How the data were processed

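Synthesised oligos were amplified with barcoded primers, cloned, grown in yeast and amplified again from yeast DNA, per the labels' protocols. Per the submitters' processing notes cutadapt and STAR were used, in no stated version or role, and how reads were assigned to entries is not given in the sources used here. The authors deposited raw counts of reads per entry in 1 column per library, per the file headers, and the values are whole numbers. The 10 libraries compared held 683589 to 2627106 counts each. Floors cover counting error only, since amplified reads with no molecular identifier can stem from 1 molecule.

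Counts scaled to library totals were fitted with edgeR 4.0.16 in R 4.3.3 (quasi-likelihood, two-sided, Benjamini-Hochberg), with barcode as a block; differences between arms used 20 libraries. Entries with a mean of at least 10 counts were tested. The pairing of barcodes was checked on deviations from group means, whose correlation between the times was 0.702 to 0.721 within a number and -0.128 at most across numbers. Shares, features and substitution series were tested by exact permutation, without pairing of the barcodes, in scipy 1.17.1 (Python 3.11.15). Alternatives were TMM, DESeq2 1.42.0, no block, no filter, a minimum mean of 50, all 11 groups in 1 fit, other prior counts (0.5 and 10), summed reads, each entry once, thinning, and leaving out each barcode.

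Named entries are the 12 largest rises and 6 largest falls past 0.05, at least 2-fold and the same way in 5 of 5 barcodes, and the 6 largest shares at 24 h. Named sets are the substitution series, parents, controls, stop-first entries and, among sets with at least 0.1% of reads at 12 h, the 6 largest rises and falls; grid, core and template sets are described by family. Members and lists were chosen with earlier results of these data known.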

Additional observations from a re-analysis of the deposited data

Results flagged for a closer look

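In some groups of 5 libraries 1 library stood apart from the rest by Dixon's criterion, which chance alone meets in about 1 of 20 groups; 152 groups were looked at and 14 met it. At 12 h these were the lowest share of glycine-to-proline variants (2.94% of reads, barcode 2) and the highest levels of entry 8867 (195.2 CPM), entry 8113 (1383 CPM), entry 7050 (700.3 CPM) and entry 10412 (399.9 CPM). At 24 h they were the highest levels of entry 8871 (2039 CPM), entry 8113 (5009 CPM), entry 7050 (2345 CPM) and entry 10412 (1207 CPM), and the highest shares of the variants with phenylalanine at some tryptophans (3.38%) and of set11 (0.147%). The composition at 24 h gave the highest mean number of acidic residues (6.02), the lowest net charge (-5.96) and the longest mean run of tryptophans (2.10). Each of these entries was high in the same barcode at both times where both are listed, and rose in 5 of 5 barcodes.

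The change from 12 h to 24 h differed between arms for 289 entries and 64 sets against the label 150, and for 2729 entries and 107 sets against untreated culture (edgeR, adjusted p under 0.05). Against the label 150, the log2 change at the label 200 was higher by 4.06 in the stop-first set, 3.22 with tyrosine at all tryptophans and 0.83 in wp-template2-5d. It was higher by 0.36 in Oaf1, 0.33 and 0.32 with phenylalanine at all or some tryptophans, 0.25 in proline, 0.21 in methionine and 0.11 in leucine variants. With DESeq2 Oaf1 still passed (0.18), and the 5 other sets of that sentence did not (-0.07 to 0.15). The change in read-weighted composition at the label 200 minus that at the label 150 was 0.0568 aspartates, -0.0533 glycines, 0.044 leucines, -0.0134 tyrosines, 0.0481 acidic residues, -0.0432 aromatic residues and -0.0492 units of net charge per peptide.

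Against untreated culture, the log2 change was higher by 1.23 in Oaf1, 1.10 and 0.95 with phenylalanine at all or some tryptophans, 0.85 in the stop-first set, 0.84 in methionine, 0.82 in proline and 0.69 in leucine variants. The difference was -1.90 in wp-template2-5d, -1.67 in set27, -1.65 in set31, -1.64 in set11, -1.62 in wp-template2-2d-spread1 and -1.27 with tyrosine at all tryptophans. The change in composition with the label 200 minus that without antibiotic was 0.308 aspartates, 0.251 leucines, 0.15 methionines, 0.106 phenylalanines, 0.0626 asparagines plus glutamines, 0.0461 prolines, 0.019 alanines and 0.258 acidic residues per peptide. The difference was -0.509 glycines, -0.119 cysteines, -0.0767 isoleucines plus valines, -0.0678 tyrosines, -0.0657 arginines, -0.0497 glutamates, -0.323 units of net charge, -0.0842 in the longest run of tryptophans and -0.0325 in that of acidic residues.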

How the results depend on the processing

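The replicate block carried the calls: with no replicate block 0 entries rose (11 at an unadjusted p under 0.05) and 55 fell against 632 and 1653, 12 sets rose and 56 fell against 19 and 85, 0 entries and 39 sets differed from the label 150 against 289 and 64, and 31 entries and 55 sets differed from untreated culture against 2729 and 107. Of the 23 named entries 17 lost their call without the block and 6 kept it. The blocked sign-flip test has too few arrangements to reach the threshold, so with it 0 features, 0 series and 0 diversity measures pass, which says nothing about stability. TMM gave 37 sets higher and 48 lower and 171 entries differing from the label 150, and DESeq2 39 sets higher and 50 lower. Leaving out each barcode gave 544 to 586 rises, 1387 to 1456 falls, 16 to 18 sets higher, 75 to 80 lower, and 10 to 69 entries differing from the label 150; 2488 to 2639 entries and 101 to 105 sets differed from untreated culture and 58 to 63 sets from the label 150. Features passing were 13 to 15, diversity measures 3, and series 0 to 11, since 4 against 4 leaves few permutations. Direction turned on the log2 scale for aspartate to glutamate at some positions (0.44 with TMM, 0.46 with DESeq2), glycine to valine (0.24, 0.26), EKLF (0.15, 0.17), KLF4 (0.01 with DESeq2), Pho4 (0.11 with TMM, 0.38 with no replicate block) and AH (0.57 with TMM, 0.59 with DESeq2, 0.11 with no replicate block, and from -0.14 to 0.15 without 1 barcode, being 0.0 without barcode 1 or 5). The stop-first set turned to -0.07, and its share difference to -0.00125 percentage points, without barcode 3; without the others these went up to 0.24 and 0.00922. Differences from the label 150 turned with DESeq2 for leucine variants (-0.07), set11 (-0.09, and -0.02 to 0.14 without 1 barcode) and wp-template2-2d-spread1 (-0.07). Counting each entry once turned proline to -0.179 and serine plus threonine to 0.072. Summed reads turned leucine at all tryptophans to 0.275, isoleucine to 0.0928 and threonine to 0.157, and glutamine for glycine ranged from -0.114 to 0.00469 without 1 barcode. The causes were not tested. No filter, a minimum mean of 50 and all 11 groups in 1 fit kept every named entry's call, though the median change of tested entries was -0.48 with the minimum mean of 50 and -1.44 with no filter, against -1.21. Depth limits the falls: 3 reads at 24 h are 0.618 CPM, and 7784 entries were too scarce to test.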

Other observations

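Entries can be sorted by what they did without the antibiotic, from 0 h to 24 h in untreated culture. Over all tested entries 13.7% rose and 35.8% fell with the label 200 between 12 h and 24 h. Of 575 tested entries that gained more than 0.5 on the log2 scale in untreated culture, 142 rose (24.7%) and 308 fell (53.6%). The reads of that class were 41.2 ± 1.44% at 12 h and 41.4 ± 2.62% at 24 h. Of 1378 tested entries that lost between 1 and 3 without the antibiotic, 31 rose (2.25%) and 299 fell (21.7%), and the median change was -1.85. Of 132 tested entries that lost more than 3, 0 rose in edgeR (0 at an unadjusted p under 0.05, and 6 with DESeq2). In this class 4 fell (3.03%), with a median of -0.34. All 3852 such entries, most of them untested, went from 0.829 ± 0.0367% to 1.04 ± 0.0612% of reads. The entries lost most without the antibiotic thus held no smaller share at 24 h than at 12 h with the label 200.

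Some named entries went on changing after 24 h with the label 200, given as shares with no test. Entry 8122 held 0.378% at 24 h, 1.62% at 48 h and 4.33% at 72 h, and entry 8113 0.186%, 0.561% and 1.1%. Entry 9237 held 0.48% at 24 h, 0.448% at 48 h and 0.166% at 72 h, and entry 8145 0.439%, 0.45% and 0.183%. Entry 4295, among the largest rises to 24 h, held 0.00904%, 0.00287% and 0.000968%. The stop-first share was 0.0558% at 24 h and 0.0166% at 48 h. Stop-first entries with a read per library were 68.4 ± 15.9 at 24 h and 86.6 ± 6.39 in the deeper libraries of 48 h.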
